A study of Rattus norvegicus with 6 samples.

Results

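The levels of 9 genes of cardiac fatty acid use were compared between RNA that came down with the RNA-binding protein MBNL1 (muscleblind-like 1) and RNA of the lysate. The 9 genes are Lpl, Acsl1, Cpt1a, Cpt1b, Acadvl, Acadm, Pdk4, Ppara and Ppargc1a. They were taken by Ensembl rat gene ID from a list given by function, and all 9 were among the 32883 genes of the deposited count table. In RNA immunoprecipitation sequencing (RIP-seq), transcripts that are pulled down along with a protein are read against those of the starting lysate. Both groups were ventricular cardiomyocytes of neonatal rats, isolated at postnatal day 1 to 2, pre-plated to deplete non-myocytes and transduced for 48 h with an adenovirus for FLAG-tagged MBNL1 at a multiplicity of infection of 100. The RIP group held 3 libraries of RNA recovered with an anti-FLAG antibody. The Input group held 3 libraries of lysate, of which 10% was kept as Input. The lysate had first been cleared of nuclear membrane and debris by centrifugation. Every library, Input included, came from cells that carried the tagged protein. Control IgG pulldowns and untransduced cells were not analysed here, and RNA that sticks to beads or antibody alone was not measured.

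Fatty acids are the main fuel of the adult heart, and their use rises after birth as the heart turns away from glucose. Lipoprotein lipase releases them from circulating triglycerides, acyl-CoA synthetases activate them, carnitine palmitoyltransferase 1 admits them to mitochondria, and acyl-CoA dehydrogenases begin each round of beta-oxidation. The nuclear receptor PPAR-alpha and its coactivator PGC-1-alpha drive transcription of many genes of this pathway. MBNL proteins regulate splicing in the nucleus and bind mature transcripts in the cytoplasm, where they affect RNA localization and stability.

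Sequencing depth was 17265349 to 18145453 counts per library in RIP and 19150577 to 19325661 in Input. One gene held 19.6% to 28.1% of the counts in RIP and 7.79% to 8.89% in Input. Levels are therefore given in CPM, a gene's counts relative to the total of its library. They are scaled by TMM, a factor meant to correct each library for such differences in composition. TMM takes most genes as unchanged. Enriched and depleted thus mean relative to the bulk of genes, not absolute amounts that came down with MBNL1. Of 13823 genes with enough counts to test, 33% were higher and 34.9% lower in RIP at an adjusted p under 0.05 (Benjamini-Hochberg, quasi-likelihood test in edgeR), so 67.9% of all genes passed. With library sizes alone in place of TMM, 38.2% of the genes that passed were higher, against 48.6% with TMM. The median log2 fold change of all genes was then -0.18, against -0.028 with TMM. With 67.9% of genes past the threshold, whether most genes were unchanged, as TMM takes them to be, was not tested. The labels do not say whether libraries of a group came from separate cultures, and the p-values reflect only how far these libraries differ from each other, which may be technical.

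All 9 genes passed the filter on low counts. Relative to the lysate, 3 were enriched with MBNL1 (Cpt1b, Acadm and Acadvl), 3 were depleted (Lpl, Ppargc1a and Pdk4) and 3 did not pass the test (Acsl1, Cpt1a and Ppara). The share that passed, 6 of 9, lies near the 67.9% of all genes tested, so the number of changed genes does not set this group apart. Their median log2 fold change was 0.041, beside -0.028 over all genes tested. Among the 9 genes, 2 had all RIP values above all Input values (34.3% of all tested genes did) and 3 had all RIP values below them (36.8% did). Together that is 5 of 9, beside 71.1% of all tested genes. No change reached 2-fold, a size that 8.94% of all tested genes passed upward and 15.1% downward. Lpl lay at that size with upper-quartile factors (-1 on the log2 scale) and passed it with library sizes only (-1.08). The enriched genes encode the muscle isoform of carnitine palmitoyltransferase 1 and a pair of acyl-CoA dehydrogenases, while the other isoform, Cpt1a, did not pass. The depleted genes encode a secreted lipase, a transcriptional coactivator and a mitochondrial kinase that acts on pyruvate dehydrogenase.

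**Figure D1:**
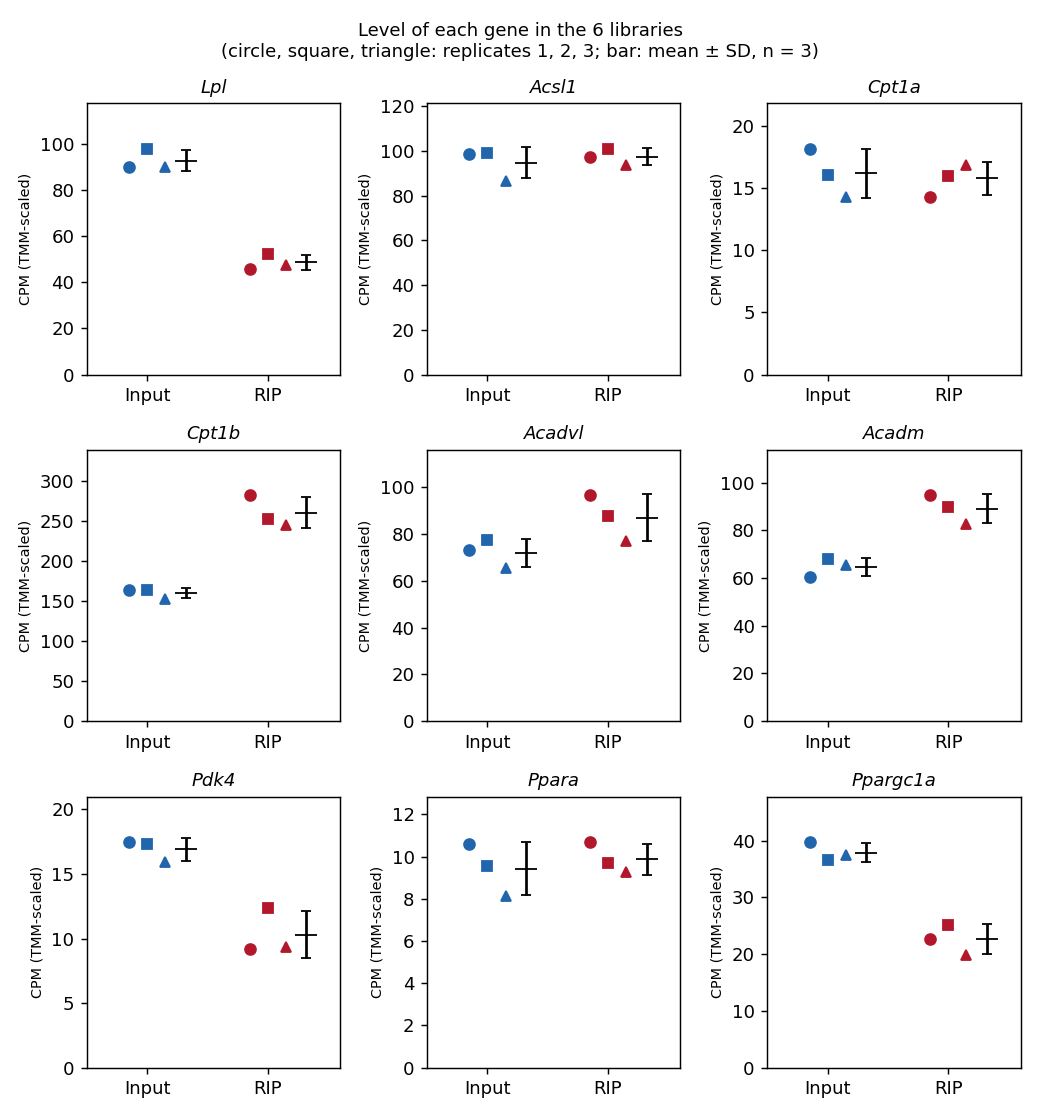
Level of each gene in TMM-scaled CPM (vertical axis, starting at 0) in the 3 Input (blue) and 3 RIP (red) libraries, with circles, squares and triangles for replicates 1, 2 and 3 and a bar for the mean ± SD (n = 3). Cpt1b and Acadm lie higher in every RIP than in every Input library, Lpl, Pdk4 and Ppargc1a lie lower in every RIP library, and the other 4 genes overlap.

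Lpl (ENSRNOG00000012181) encodes lipoprotein lipase, which frees fatty acids from circulating lipoproteins for uptake. Its level was 90.3, 98.1 and 90 CPM in Input replicates 1, 2 and 3 and 46, 52.4 and 47.7 CPM in the RIP replicates. Every RIP value lay below every Input value, and the gap between the groups was far wider than the spread within either. The mean fell from 92.8 ± 4.59 to 48.7 ± 3.33 CPM (SD, n = 3 each). Lpl was thus 1.9-fold lower in RIP (95% interval 1.7 to 2.13), with a log2 fold change of -0.93 and an SE of 0.08 (edgeR adjusted p = 6.49e-10). This was the largest change among the 9 genes, and 16.6% of all tested genes had a lower fold change. Counts behind it were 723 to 870 in the RIP and 1761 to 2090 in the Input libraries.

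Acsl1 (ENSRNOG00000010633) encodes the long-chain acyl-CoA synthetase that activates fatty acids for oxidation in heart. Its level was 98.5, 98.8 and 86.6 CPM in Input replicates 1, 2 and 3 and 97.4, 101 and 93.7 CPM in the RIP replicates. The ranges overlapped. Its log2 fold change of 0.04 (SE 0.08) did not pass (edgeR adjusted p = 0.649), with a 95% interval of -0.12 to 0.20. With library sizes only it was -0.11 (adjusted p = 0.317), so its sign depended on the scaling and no direction is given.

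Cpt1a (ENSRNOG00000014254) and Cpt1b (ENSRNOG00000010438) encode the isoforms of carnitine palmitoyltransferase 1, the rate-limiting step of fatty acid entry into mitochondria. Cpt1b is the muscle isoform and the main form in adult heart, while Cpt1a is the liver isoform and is also made in fetal and neonatal heart. Cpt1b was enriched in RIP, whereas Cpt1a did not pass the test.

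Cpt1b measured 164, 163 and 152 CPM in Input replicates 1, 2 and 3 and 282, 252 and 245 CPM in the RIP replicates. Every RIP library was above every Input library. The mean rose from 160 ± 6.51 to 260 ± 19.5 CPM (SD, n = 3 each). Cpt1b was enriched 1.63-fold (95% interval 1.46 to 1.82), with a log2 fold change of 0.70 and an SE of 0.08 (edgeR adjusted p = 4.24e-08). Among all tested genes, 83.2% had a lower fold change. It had the highest counts of the 9 genes, 3052 to 3474 in the Input and 4188 to 4446 in the RIP libraries.

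Cpt1a measured 18.2, 16.1 and 14.3 CPM in Input replicates 1, 2 and 3 and 14.3, 16 and 16.9 CPM in the RIP replicates. The groups overlapped, with no order between them. An estimate of -0.03 on the log2 scale (SE 0.11) did not pass (edgeR adjusted p = 0.805), with a 95% interval of -0.27 to 0.20. The sign turned when RIP replicate 1 or Input replicate 1 was left out, giving 0.03 and 0.04. Its 225 to 354 counts per library leave room for changes within that interval.

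The ratio of Cpt1a to Cpt1b counts within a library does not depend on how libraries are scaled. As a log2 ratio of counts it was -3.17, -3.34 and -3.41 in Input replicates 1, 2 and 3 and -4.3, -3.97 and -3.85 in the RIP replicates. All RIP ratios were below all Input ratios. The mean difference was -0.73, so relative to Cpt1b, Cpt1a was 1.66-fold lower in RIP than in Input (two-sided exact permutation test, p = 0.1, the smallest that 3 against 3 libraries allow). These ratios compare RIP with Input and do not give the relative abundance of the isoforms, since counts were not divided by transcript length.

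Acadm (ENSRNOG00000009845) and Acadvl (ENSRNOG00000018114) encode the medium-chain and very-long-chain acyl-CoA dehydrogenases, which catalyse the first step of beta-oxidation on substrates of different length. Both were enriched in RIP. The call for Acadm held under every alternative run and that for Acadvl did not.

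Acadm measured 60.6, 68 and 65.5 CPM in Input replicates 1, 2 and 3 and 94.7, 89.7 and 82.7 CPM in the RIP replicates. No RIP value overlapped the Input values. The mean rose from 64.7 ± 3.73 to 89 ± 6.01 CPM (SD, n = 3 each). This was a 1.38-fold enrichment (95% interval 1.23 to 1.54) and 0.46 on the log2 scale with an SE of 0.08 (edgeR adjusted p = 2.08e-05). With library sizes only it was 0.30 on the log2 scale and still passed. A lower fold change was found for 73.7% of all tested genes.

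Acadvl measured 73.1, 77.3 and 65.4 CPM in Input replicates 1, 2 and 3 and 96.6, 87.6 and 76.8 CPM in the RIP replicates. The groups overlapped, because RIP replicate 3 was just below Input replicate 2. The mean rose from 71.9 ± 6.03 to 87 ± 9.92 CPM (SD, n = 3 each). Enrichment was 1.21-fold (95% interval 1.07 to 1.37), a log2 fold change of 0.27 with an SE of 0.09 (edgeR adjusted p = 0.00874). The call did not hold with library sizes only, where the log2 fold change was 0.12 (adjusted p = 0.312). It was also lost without RIP replicate 1 (0.19, adjusted p = 0.0598) and without Input replicate 3 (0.21, adjusted p = 0.0683).

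The log2 ratio of Acadm to Acadvl counts was -0.27, -0.19 and 0.0011 in Input replicates 1, 2 and 3. In the RIP replicates it was -0.03, 0.03 and 0.11. The groups overlapped, since Input replicate 3 exceeded RIP replicate 1. The mean difference of 0.19 was not distinguishable at 3 against 3 libraries (two-sided exact permutation test, p = 0.2).

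**Figure D2:**
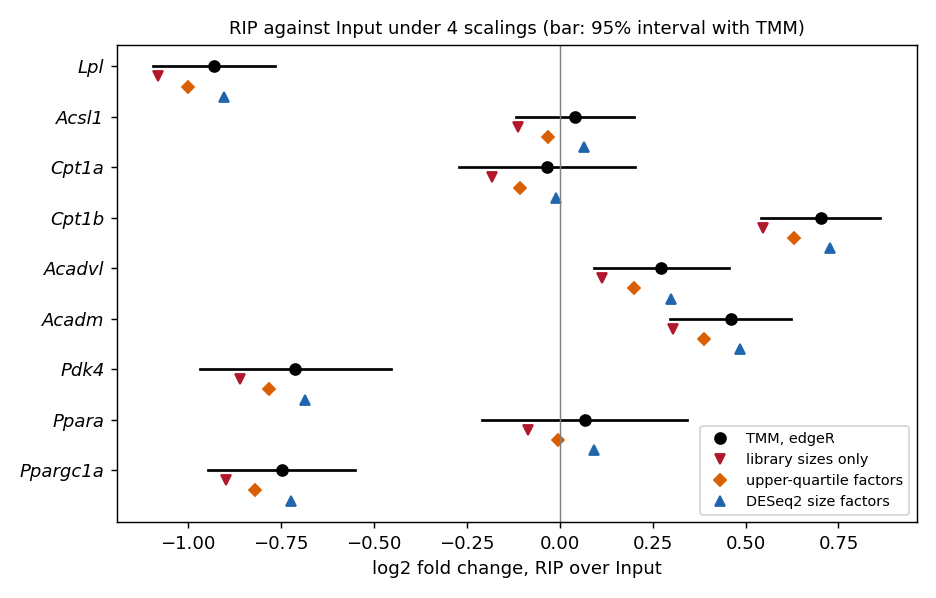
Log2 fold change of RIP over Input for each gene (horizontal axis), with the 95% interval of the edgeR fit on TMM-scaled counts (black) and the estimates under 3 other scalings (coloured markers). Cpt1b and Acadm stay above 0 and Lpl, Pdk4 and Ppargc1a below 0 under all 4 scalings; Acsl1 and Ppara change sign, and Acadvl stays above 0 but misses the threshold with library sizes only.

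Pdk4 (ENSRNOG00000009565) encodes pyruvate dehydrogenase kinase 4, which phosphorylates pyruvate dehydrogenase and so limits glucose oxidation when fatty acids are used. It is a well-known target of PPAR receptors. Its level was 17.5, 17.3 and 15.9 CPM in Input replicates 1, 2 and 3 and 9.23, 12.4 and 9.31 CPM in the RIP replicates. All RIP values were below all Input values, with RIP replicate 2 the highest of its group. The mean fell from 16.9 ± 0.867 to 10.3 ± 1.82 CPM (SD, n = 3 each). It was 1.64-fold lower in RIP (95% interval 1.37 to 1.96), with a log2 fold change of -0.71 and an SE of 0.12 (edgeR adjusted p = 2.77e-05). Its 145 to 206 counts per RIP library were among the lowest of the 9 genes, and its interval was wider than that of Lpl.

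Ppara (ENSRNOG00000021463) encodes the receptor PPAR-alpha, and Ppargc1a (ENSRNOG00000004473) encodes the coactivator PGC-1-alpha that works with it and with other receptors to raise mitochondrial gene expression. The coactivator transcript was depleted in RIP, whereas the receptor transcript did not pass the test.

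Ppargc1a measured 39.8, 36.5 and 37.4 CPM in Input replicates 1, 2 and 3 and 22.7, 25.2 and 19.9 CPM in the RIP replicates. The groups did not overlap. The mean fell from 37.9 ± 1.69 to 22.6 ± 2.66 CPM (SD, n = 3 each). Ppargc1a was 1.68-fold lower in RIP (95% interval 1.46 to 1.93), with a log2 fold change of -0.75 and an SE of 0.10 (edgeR adjusted p = 4.09e-07). Of all tested genes, 21.2% had a lower fold change. Counts were 356 to 418 in the RIP and 751 to 777 in the Input libraries.

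Ppara measured 10.6, 9.53 and 8.12 CPM in Input replicates 1, 2 and 3 and 10.7, 9.7 and 9.25 CPM in the RIP replicates. The groups overlapped. The estimate of 0.07 on the log2 scale (SE 0.13) did not pass (edgeR adjusted p = 0.671), with a 95% interval of -0.21 to 0.34. With library sizes only it was -0.09 (adjusted p = 0.6), so no direction is given. Ppara had 161 to 207 counts per library and the widest interval of the 9 genes, which leaves room for changes within that interval.

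The log2 ratio of Ppargc1a to Ppara counts was 1.9, 1.93 and 2.2 in Input replicates 1, 2 and 3 and 1.08, 1.37 and 1.1 in the RIP replicates. All RIP ratios were below all Input ratios. The mean difference was -0.83, so Ppargc1a relative to Ppara was 1.77-fold lower in RIP (two-sided exact permutation test, p = 0.1, the smallest possible here).

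**Figure D3:**
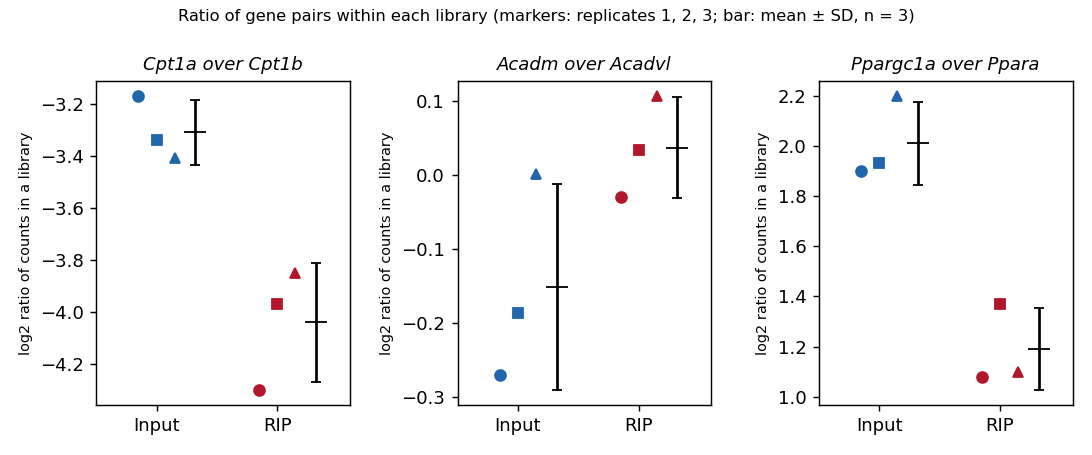
Log2 ratio of the counts of 2 genes within each library (vertical axis) for Cpt1a over Cpt1b, Acadm over Acadvl and Ppargc1a over Ppara in the 3 Input (blue) and 3 RIP (red) libraries, with the mean ± SD (n = 3). The first and the last ratio lie lower in all RIP libraries, by 0.73 and 0.83 on average, while the values of Acadm over Acadvl overlap.

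Across the 36 pairs of the 9 genes, 29 (80.6%) had within-library ratios that did not overlap between RIP and Input. The same was true of 68.7% of all pairs of tested genes. Pairs share genes and libraries, so these shares are descriptive. The widest difference was that between Cpt1b and Lpl, whose log2 ratio was 1.63 higher in RIP. The narrowest was that between Pdk4 and Ppargc1a, whose log2 ratio differed by 0.03 with overlapping groups. Relative to Pdk4, the log2 ratio of Lpl fell by 0.21 with no overlap between the groups. Relative to Ppargc1a its difference was -0.18 and the groups overlapped.

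**Figure D4:**
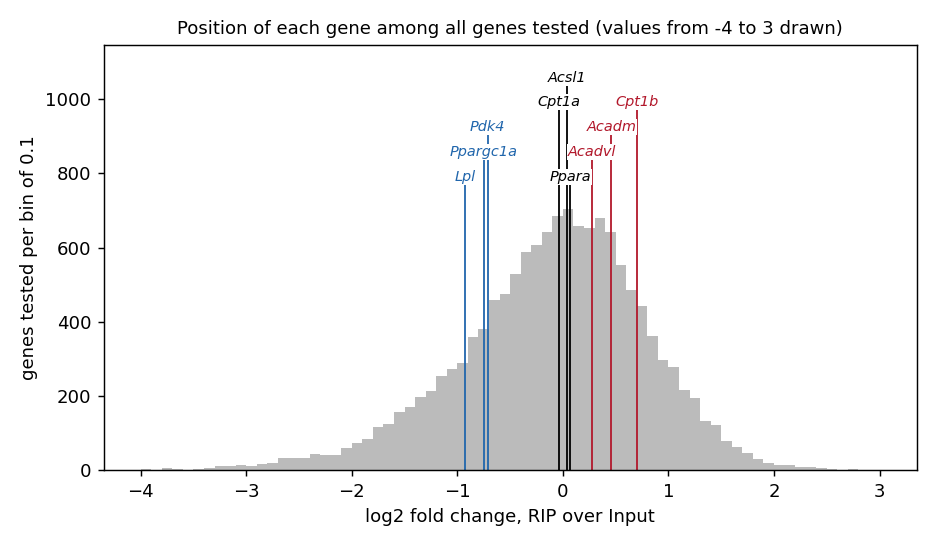
Number of tested genes per bin of 0.1 (vertical axis) by log2 fold change of RIP over Input (horizontal axis; 13793 genes from -4 to 3 drawn), with a line for each of the 9 genes: red for higher, blue for lower and black for genes that did not pass the test. Lpl and Cpt1b are the outermost of the 9, with 16.6% of tested genes below Lpl and 83.2% below Cpt1b.

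Summed over the 9 genes, the TMM-scaled level was 572.2, 584.6 and 535.2 CPM in Input replicates 1, 2 and 3 and 673.4, 646.6 and 601.2 CPM in the RIP replicates. Every RIP sum lay above every Input sum on this scale. As CPM of the unscaled library total, the sums were 582.4, 644.4 and 558.8 in Input and 597.8, 621.4 and 601.6 in RIP, and the groups overlapped. Whether the summed level differs thus depended on the scaling, and Cpt1b has the highest counts in every sum.

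Over the 6 libraries, the genes whose log2 CPM was most like that of Ppargc1a were ENSRNOG00000007829 (Pearson's r = 0.9995) and ENSRNOG00000020117 (r = 0.9986), for which no symbol is given here. Their log2 fold changes were -1.54 and -1.34. Among the 9 genes, Pdk4 (r = 0.97) and Lpl (r = 0.966) were most like it and Cpt1b (r = -0.93) was most unlike. These values describe 6 libraries in 2 groups and mostly restate the difference between the groups.

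The annotated spans of 5 genes overlap another gene in the RefSeq annotation of the rat assembly GRCr8. Ppara overlaps the protein-coding gene Cdpf1, Acadvl the microRNA gene Mir324, Ppargc1a the pseudogene Rpl36-ps6, Cpt1a a long non-coding RNA and Acadm a small nucleolar RNA. In that annotation, the spans of Lpl, Pdk4, Cpt1b and Acsl1 overlap none. Only whole gene spans were compared, and shared exons were not looked at. The strand setting and the annotation behind the counts are unknown. Whether reads from overlapping transcripts entered the counts of any of these genes was thus not tested.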

How the data were processed

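The authors deposited a table of raw read counts per gene for 6 libraries, without normalization. The submitters' processing notes name STAR, featureCounts and DESeq2. Tool versions, build, annotation, strandedness and the rule for multi-mapping reads are not stated in these notes or the labels.

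The count table carries Ensembl IDs only, and 0 of 47357 genes in the RefSeq table used here (GRCr8) carry one. The symbols of the 9 genes are those given with the list of IDs and could not be checked against it, although all 9 symbols exist there. Pathway lists and cell type markers set out by symbol could not be matched, so the cardiomyocyte label, other cell types and other genes of the pathway were not tested. Coordinates and sequences are not given.

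Low genes were removed by filterByExpr (at least 10 counts, at least 15 in total), keeping 99.91% or more of each library. The 13823 remaining genes were tested with edgeR 4.0.16 under R 4.3.3, using TMM factors, the quasi-likelihood F test and no covariate. P-values were adjusted by Benjamini-Hochberg over all genes tested, with a threshold of 0.05. Standard errors are the log2 fold change over the square root of F. Within-library ratios used counts plus 0.5 and an exact permutation test over libraries. The edgeR test was tried on simulated counts in which 67, 67 and 66 genes were changed 1.5-, 2- and 4-fold. It recovered 79.1%, 89.6% and 97% of them, and 5.35% of its calls were false. Few genes were changed there, whereas 67.9% passed in these data, so the simulation does not bear on the scaling. Between libraries of a group, chi-square per degree of freedom was 6.88 to 36, so none was a duplicate. Alternatives used DESeq2 1.42.0, limma-voom (limma 3.58.1), other scalings and filters, and left out each library.

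The genes named are the 9 and, by rule, the 2 others whose log2 CPM had the highest Pearson correlation with that of Ppargc1a. The members, the lists and the alternatives were chosen with earlier results of these data known. The numbers of the RIP and Input libraries were not treated as pairs in the main test, because the labels do not say whether they mark a shared lysate.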

Additional observations from a re-analysis of the deposited data

How the results depend on the processing

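The calls for Lpl, Ppargc1a, Pdk4, Cpt1b and Acadm held, in the same direction, under DESeq2, limma-voom, 3 other scalings in edgeR, both other filters on low counts, the replicate block, each left-out library and, added after seeing the data, library sizes without the leading gene. Their log2 fold changes ranged from -1.08 to -0.88, -0.90 to -0.66, -0.86 to -0.63, 0.55 to 0.75 and 0.30 to 0.52. Acadvl ranged from 0.12 to 0.36. Its call was lost with library sizes only (0.12) and without RIP replicate 1 (0.19) or Input replicate 3 (0.21). It passed narrowly with upper-quartile factors (0.2, edgeR adjusted p = 0.0467) and with at least 5 CPM in 3 libraries (0.215, edgeR adjusted p = 0.0348). The estimates near 0 changed sign. Cpt1a gave 0.026 without RIP replicate 1 and 0.044 without Input replicate 1, in a range of -0.116 to 0.044 over the left-out libraries. Acsl1 gave -0.111 with library sizes only, -0.031 with upper-quartile factors, -0.017 with at least 5 CPM in 3 libraries and -0.019 without Input replicate 3. Ppara gave -0.086 with library sizes only, -0.0057 with upper-quartile factors and -0.029 without Input replicate 3, with -0.029 to 0.146 over the left-out libraries. The cause of the changes after leaving out a library, changing the filter or changing the scaling was not tested. With the replicate block, 3 of the 9 genes were higher and 3 lower, as without it, and 4616 genes in all were higher and 4877 lower. Same-numbered libraries deviated from their group means with correlations of 0.053, 0.077 and 0.053, against -0.0659 to 0.00857 for libraries of different number. Each RIP library was most like the Input library of its own number and the reverse, a pairing that the labels do not state. Deviations from a group mean cancel out within the group. Correlations for different numbers therefore tend to be negative where those for the same number are positive, and are no independent contrast. The size of these correlations cannot decide whether same-numbered libraries share a lysate. The within-library ratios in same-numbered libraries gave -0.733, 0.188 and -0.827 for Cpt1a over Cpt1b, Acadm over Acadvl and Ppargc1a over Ppara, where 3 pairs allow no exact p below 0.25. Leaving out libraries gave -0.827 to -0.606, 0.129 to 0.265 and -0.921 to -0.733. Cpt1a, Ppara and Pdk4 had the fewest counts, 145 to 368 per library, and how far depth set their spread was not tested.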
